A study of Mus musculus with 3 samples.

Results

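Glycolysis, lactate handling and the hypoxia response were followed through 34 genes out of 55471 features in the deposited table. They were picked by name from textbook pathway knowledge, with earlier results of these data known. Each symbol matched 1 row. Of the 34 genes, 32 reached a mean of 1 TPM (a relative transcript abundance corrected for gene length) over the 3 libraries and were compared. The remaining pair, the glucose transporter gene Slc2a3 and the lactate transporter gene Slc16a3, stayed below it.

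The cells were JC, an established mouse mammary carcinoma line labelled as epithelial-like and, at every stage, as genotype WT. The selection stages had 1 library each, prepared with oligo(dT) beads and a stranded kit from cultured cells. JC-WT carries the treatment label WT with no further history. JC-P was isolated 14 days after transplantation from tumours grown in the mammary fat pad. JC-M3 descends from JC-P through 3 selection cycles, each an injection of 500000 cells into the tail vein and a harvest of lung metastases after 28 days. JC-P and JC-M3 both carry metastasis as their treatment label, and the fat pad origin of JC-P follows the protocol. Culture medium with fetal bovine serum is described for all, and no oxygen level is given in the sources used here. With 1 library per stage there was no replicate check and no test. Each difference therefore describes a pair of libraries, and the intervals printed cover counting error only.

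Glycolysis turns glucose into pyruvate in the cytosol. Lactate dehydrogenase reduces pyruvate to lactate, and monocarboxylate transporters carry lactate across the cell membrane. When oxygen is short, the prolyl hydroxylases that mark HIF-1 alpha for destruction slow down, and HIF-1 then switches on many of these genes together with others for pH control, mitophagy and vessel tone. Many tumours, mammary carcinomas among them, run glycolysis at a high rate even with oxygen present.

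Reads recovered from the table numbered 18088800 for JC-WT, 22124700 for JC-P and 23378000 for JC-M3. Of 14 epithelial markers only 4 had a mean of at least 1 TPM, and Epcam and Cldn7 were listed at 0 in every library, whereas the keratin gene Krt8 stood at 1503 TPM in JC-WT cells, 1873 in JC-P cells and 681 in JC-M3 cells. The 4 did not move together. Their log2 ratios ran from -1.05 to 0.62 for JC-P over JC-WT and from -1.46 to 1.02 for JC-M3 over JC-P. In each of these comparisons 2 lay above 0 and 2 below. Markers of lymphoid cells, adipocytes and erythroid cells each summed to under 1 TPM in every library. The sum over 14 myeloid markers ran from 52.65 to 77.6 TPM, with Ptprc listed at 0 throughout. A listed 0 sets no upper limit in this table, since G6pc3, a glucose 6-phosphatase gene of most tissues, is also listed at 0 in all 3 libraries.

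HIF-1 binds the core letters ACGTG or GCGTG. RefSeq promoter windows (GRCm38.p6, from 250 bases before to 50 bases after a start) matched 31 of the 34 genes, in 44 windows. Either core, read on both strands, stood in 36 of the 44 windows (81.8%), against 43.8% of all 32851 promoter windows. ACGTG alone stood in 24 of them (54.5%), against 19.6% of all windows. The median G+C content was 61.8% in the windows of these genes and 52.7% in all windows, and its part in the difference was not tested. Counted by gene, all 8 of the hypoxia response genes with a window held a core, and so did 20 of 23 genes of transport, glycolysis and lactate. The share over all 27025 genes with a window was 46.7%. A match is a run of letters and not a shown binding site. The windows below belong to 6 genes on which the results turn, namely Car9, Egln3, Bnip3 and Adm of the hypoxia response and both lactate dehydrogenase genes. Each is written along its gene, with either core, on either strand, in capitals. CACGTG, as in Bnip3 and Ldha, is its own reverse complement and holds ACGTG on both strands.
Car9 promoter (chr4:43506776-43507075, plus strand): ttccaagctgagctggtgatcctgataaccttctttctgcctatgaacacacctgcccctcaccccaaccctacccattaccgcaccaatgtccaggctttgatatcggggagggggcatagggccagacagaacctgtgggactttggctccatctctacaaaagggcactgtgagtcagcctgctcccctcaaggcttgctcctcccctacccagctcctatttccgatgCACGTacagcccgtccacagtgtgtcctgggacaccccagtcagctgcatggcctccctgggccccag
Egln3 promoter (chr12:54203825-54204124, minus strand): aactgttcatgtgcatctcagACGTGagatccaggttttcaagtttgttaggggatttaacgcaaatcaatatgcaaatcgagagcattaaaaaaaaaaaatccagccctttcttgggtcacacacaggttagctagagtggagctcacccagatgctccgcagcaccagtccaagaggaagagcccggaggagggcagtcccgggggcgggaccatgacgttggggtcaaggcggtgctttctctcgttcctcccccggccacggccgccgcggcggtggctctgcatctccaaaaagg
Bnip3 promoter (chr7:138909457-138909756, minus strand): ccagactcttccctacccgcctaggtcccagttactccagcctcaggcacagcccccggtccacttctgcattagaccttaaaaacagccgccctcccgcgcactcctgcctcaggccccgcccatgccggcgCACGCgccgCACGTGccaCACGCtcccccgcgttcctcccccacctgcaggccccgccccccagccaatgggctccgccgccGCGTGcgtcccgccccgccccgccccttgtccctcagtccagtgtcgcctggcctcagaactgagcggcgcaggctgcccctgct
Adm promoter (chr7:110627407-110627706, plus strand): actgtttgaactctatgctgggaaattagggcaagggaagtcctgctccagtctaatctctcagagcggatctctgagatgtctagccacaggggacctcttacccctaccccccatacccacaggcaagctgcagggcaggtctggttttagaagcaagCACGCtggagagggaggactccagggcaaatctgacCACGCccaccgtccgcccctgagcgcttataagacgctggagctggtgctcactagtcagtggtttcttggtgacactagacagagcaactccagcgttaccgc
Ldha promoter (chr7:46845554-46845853, plus strand): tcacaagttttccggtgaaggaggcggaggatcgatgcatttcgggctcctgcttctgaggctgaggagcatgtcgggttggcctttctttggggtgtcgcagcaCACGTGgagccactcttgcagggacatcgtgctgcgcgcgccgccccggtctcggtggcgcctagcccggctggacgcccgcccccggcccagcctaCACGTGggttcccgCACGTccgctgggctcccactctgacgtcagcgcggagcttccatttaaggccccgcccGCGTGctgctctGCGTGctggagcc
Ldhb promoter (chr6:142507908-142508207, minus strand): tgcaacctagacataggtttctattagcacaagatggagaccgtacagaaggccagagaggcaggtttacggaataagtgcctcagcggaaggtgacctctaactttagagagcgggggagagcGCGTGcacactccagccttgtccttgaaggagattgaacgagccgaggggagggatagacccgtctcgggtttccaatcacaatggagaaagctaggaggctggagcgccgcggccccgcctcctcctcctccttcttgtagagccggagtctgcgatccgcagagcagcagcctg
The core of Car9 lay 18 bases before the start and that of Egln3 229 bases before it. Adm had no ACGTG and held GCGTG on the opposite strand, 90 and 54 bases before the start. Ldha held 5 matches to ACGTG in this window and 2 to GCGTG, while Ldhb held 1 GCGTG only, 126 bases before its start.

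The main enzymes of glycolysis were among the most abundant transcripts at every stage and stayed at similar levels. Of the 10 hypoxia response genes, 9 had their highest level in JC-P, as had 8 of the 22 compared genes of transport, glycolysis and lactate. The share over all features was not counted. The intervals of Adm and Ankrd37 for JC-M3 over JC-P included 0, so their highest library is uncertain. Pkm, encoding the pyruvate kinase of most proliferating cells, held rank 18 by TPM among the 14527 features compared in JC-WT cells, rank 22 in JC-P cells and rank 24 in JC-M3 cells. Together the 24 genes of transport, glycolysis and lactate took 1.04% of all TPM in JC-WT cells, 0.946% in JC-P cells and 0.895% in JC-M3 cells. Of the 32 genes compared, 20 varied by less than 1.5-fold between their highest and lowest library, 26 by less than 2-fold, and 6 by 2-fold or more. These counts of range were not made over all features. In such bulk libraries, fewer cells that express a gene and less RNA per cell cannot be told apart.

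**Figure D1:**
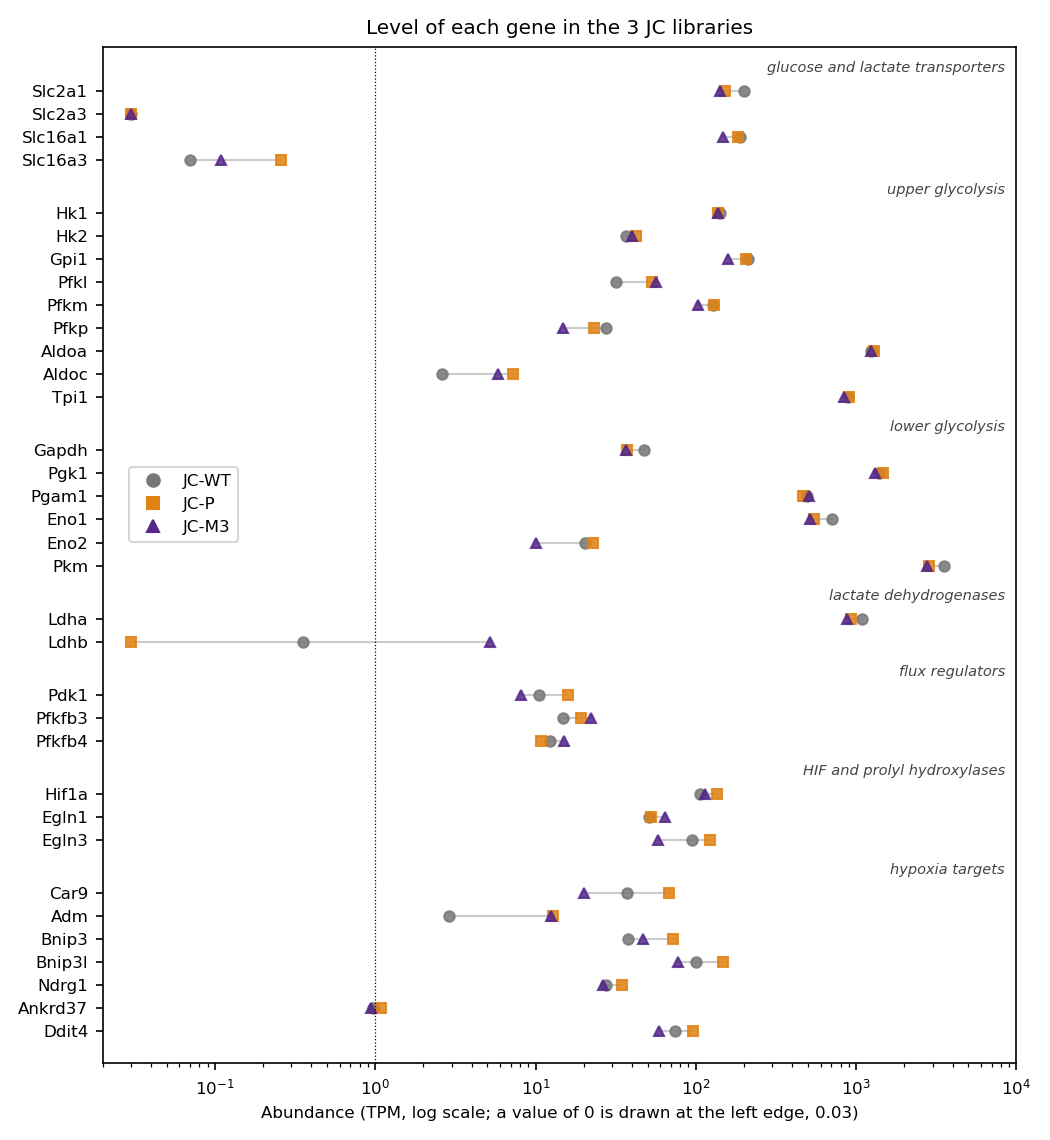
Abundance in TPM (log axis) of each of the 34 genes, grouped by role, with 1 point per library (JC-WT circles, JC-P squares, JC-M3 triangles) and a dotted line at 1 TPM. Pkm is the highest, at 2769 to 3523 TPM, while Ldhb spans 0 to 5.20 TPM and Slc2a3 is listed at 0 in all 3 libraries.

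The threshold for a call was a log2 ratio of TPM + 0.5 of at least 2-fold in size. For JC-P over JC-WT, 2 of the 32 genes (Aldoc and Adm) were called higher, against 4.76% of all 14527 features, and 0 were called lower, against 2.33%. For JC-M3 over JC-P, 1 gene (Ldhb) was called higher, against 3.82% of all features, and 3 (Car9, Eno2 and Egln3) were called lower, against 5.38%. For JC-M3 over JC-WT, 3 (Ldhb, Adm and Aldoc) were called higher, against 6.14%, and 0 lower, against 5.27%. These are counts of 0 to 3 genes, and as shares of 32 they run from 0% to 9.38%. Over protein-coding features alone the shares called were smaller, from 1.21% to 4.26%. Counts this small were not tested against either background. Over the 32 genes the median log2 ratio of JC-P to JC-WT was 0.07, beside 0.01 for all features. That for JC-M3 over JC-P was -0.12, beside -0.01, and that for JC-M3 over JC-WT was -0.08, beside 0.00. JC-P is the numerator of the first comparison and the denominator of the second, so both share its library. Many differences under 2-fold were larger than counting error. The interval lay above 0 for 15 genes and below 0 for 7 in JC-P over JC-WT, above for 6 and below for 20 in JC-M3 over JC-P, and above for 10 and below for 17 in JC-M3 over JC-WT. No such count was made over all features. In genes with many reads even a small difference leaves out 0, as for Aldoa at log2 0.06 (0.03 to 0.09) in JC-P over JC-WT.

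**Figure D2:**
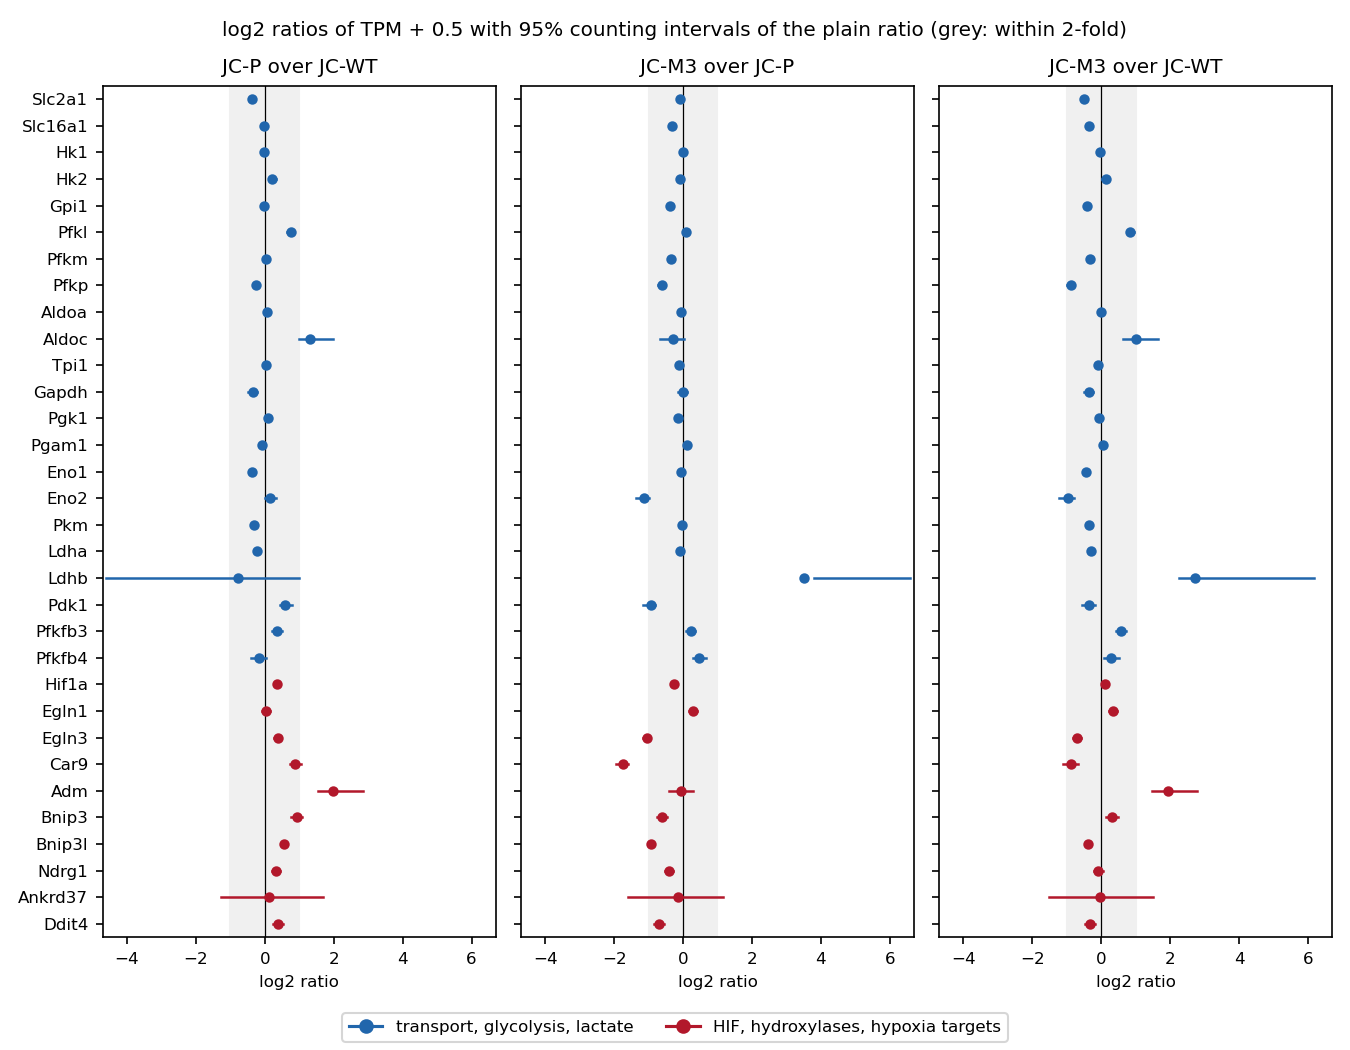
log2 ratios of TPM + 0.5 (points) for the 32 genes compared, with 95% counting intervals of the plain TPM ratio (lines, cut at the panel edges), in blue for transport, glycolysis and lactate and in red for HIF-1, its hydroxylases and hypoxia targets; the grey band is within 2-fold. The red points lie right of 0 for JC-P over JC-WT, and 9 of the 10 lie left of it for JC-M3 over JC-P, where Car9 at -1.74 is the farthest left.

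For glucose and for lactate, 1 of the 2 transporter genes made up nearly all of the listed TPM. Slc2a1, the basal glucose transporter GLUT1, stood at 198 TPM in JC-WT cells, 152 in JC-P cells and 142 in JC-M3 cells. It was lowest in JC-M3, with a log2 ratio to JC-WT of -0.48 (95% counting interval -0.55 to -0.42). Slc2a3, the high-affinity transporter GLUT3, was listed at 0 in all 3 libraries. Slc16a1, the lactate and pyruvate transporter MCT1, stood at 188 TPM in JC-WT cells, 184 in JC-P cells and 147 in JC-M3 cells. Both abundant transporters were thus lower in JC-M3 than in JC-WT, and neither reached 2-fold. Slc16a3, the lactate exporter MCT4 and a hypoxia target in many tumours, had 2 reads in JC-WT cells, 9 in JC-P cells and 4 in JC-M3 cells. Its level was at most 0.258 TPM, and the intervals of its 3 ratios all included 0, so no difference was detectable at this depth.

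Among the enzymes of the first steps, the phosphofructokinase isozymes Pfkl and Pfkp differed from JC-WT in opposite directions while aldolase A and triose phosphate isomerase were nearly level. Hexokinase, which traps glucose by phosphorylation, was mostly Hk1, at 141 TPM in JC-WT cells, 138 in JC-P cells and 138 in JC-M3 cells. The inducible Hk2 stood at 36.6 TPM in JC-WT cells, 42.5 in JC-P cells and 40.05 in JC-M3 cells, and made up 22.5% of the hexokinase pair in JC-M3 cells and 20.6% in JC-WT cells. Gpi1, which converts glucose 6-phosphate to fructose 6-phosphate, stood at 210.5 TPM in JC-WT cells, 207 in JC-P cells and 159.8 in JC-M3 cells. Its level was the lowest in JC-M3, at log2 -0.37 (-0.42 to -0.33) relative to JC-P. Aldoa, which splits fructose 1,6-bisphosphate, stood at 1234 TPM in JC-WT cells, 1285 in JC-P cells and 1231 in JC-M3 cells. Tpi1, which interconverts the triose phosphates, stood at 887 TPM in JC-WT cells, 903 in JC-P cells and 835 in JC-M3 cells. Aldoc, the aldolase of brain, was far scarcer, with 46 reads in JC-WT cells, 155 in JC-P cells and 130 in JC-M3 cells. Its level was 2.63 TPM in JC-WT cells, 7.23 in JC-P cells and 5.81 in JC-M3 cells. Relative to JC-WT the log2 ratio was 1.31 (0.98 to 1.97) in JC-P and 1.01 (0.65 to 1.66) in JC-M3, so both derived stages were above JC-WT. With pseudocount 2 these values were 0.996 and 0.75, both short of 2-fold. Even at its highest share, in JC-P, Aldoc was 0.559% of the aldolase A and C pair.

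Phosphofructokinase carries out the committed step of glycolysis, and its 3 subunits differ in their response to allosteric regulators. Pfkl, the liver subunit, stood at 31.6 TPM in JC-WT cells, 53.3 in JC-P cells and 56.5 in JC-M3 cells. The platelet subunit Pfkp stood at 27.7 TPM in JC-WT cells, 23.2 in JC-P cells and 14.9 in JC-M3 cells. Pfkm, the muscle subunit and the most abundant of the 3, stood at 127 TPM in JC-WT cells, 130.1 in JC-P cells and 102 in JC-M3 cells. Between JC-M3 and JC-WT the log2 ratio was 0.83 (0.74 to 0.94) for Pfkl, -0.87 (-0.99 to -0.79) for Pfkp and -0.31 (-0.40 to -0.23) for Pfkm, each short of 2-fold. Within a library the ratio of Pfkl to Pfkp was 1.14 (1.06 to 1.23) in JC-WT cells, 2.29 (2.16 to 2.43) in JC-P cells and 3.79 (3.54 to 4.04) in JC-M3 cells. The ratio of Pfkl to Pfkm was 0.248 (0.231 to 0.267) in JC-WT cells, 0.409 (0.388 to 0.433) in JC-P cells and 0.552 (0.522 to 0.584) in JC-M3 cells. The stages ran in the same order in both ratios, and the intervals of neighbouring stages did not overlap. With the median of each chromosome subtracted, the log2 change of Pfkl over Pfkp was -0.04 for JC-M3 over JC-P, against 0.71 without it, and 0.84 for JC-M3 over JC-WT, against 1.70. For Pfkl over Pfkm the change for JC-M3 over JC-P was 0.45 with the subtraction and 0.43 without it. With it, Pfkl itself had a log2 ratio of -0.14 for JC-M3 over JC-P, the opposite sign to 0.08 without it, and Pfkp one of -0.10, against -0.62. As a share of the 3 subunits' TPM, Pfkl took 16.9% in JC-WT cells, 25.8% in JC-P cells and 32.5% in JC-M3 cells. Their summed TPM varied less, at 186.5 in JC-WT cells, 206.6 in JC-P cells and 173.9 in JC-M3 cells. The table scales reads by the merged length of all annotated exons, which for Pfkp is 13401 bases against 2679 for its reference transcript. The level of Pfkp relative to other genes hence depends on the length used, by a factor that is the same in every library. Pitrm1, which overlaps 5.58% of the exon bases of Pfkp on the opposite strand, stood at 106 TPM in JC-WT cells, 74.4 in JC-P cells and 77.8 in JC-M3 cells, and whether counting used strand was not given in the sources used here.

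**Figure D3:**
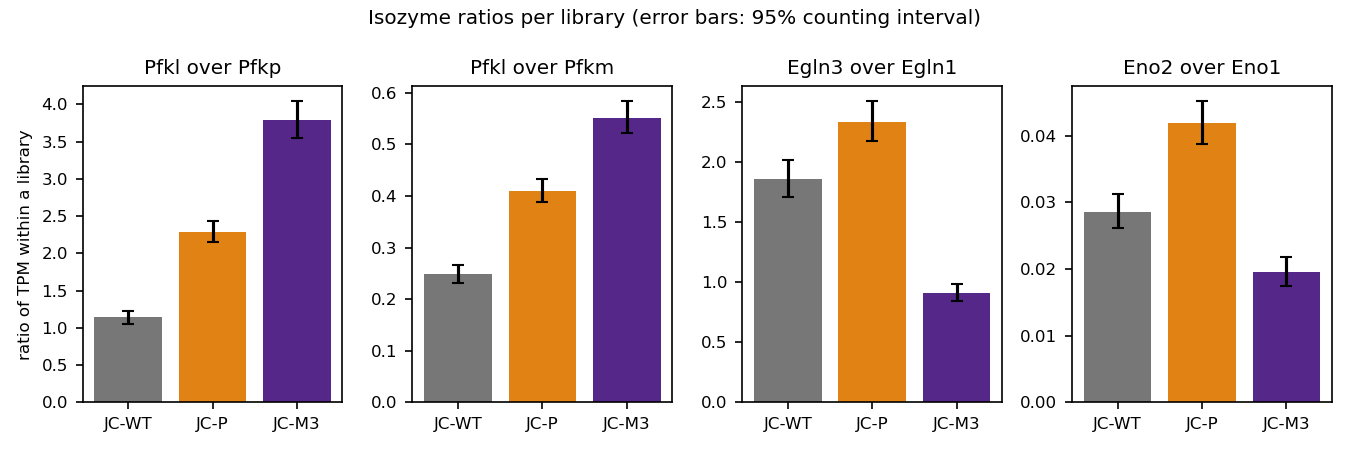
Ratio of the TPM of 2 related genes within each library (bars, linear axes from 0) with 95% counting intervals (error bars), for JC-WT, JC-P and JC-M3 from left to right. Pfkl over Pfkp runs from 1.14 to 3.79 over these stages, while Egln3 over Egln1 and Eno2 over Eno1 are highest in JC-P and lowest in JC-M3.

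In the lower part of the pathway every gene but Eno2 stayed within 1.5-fold across the libraries. Pgk1, the first ATP-yielding enzyme, stood at 1383 TPM in JC-WT cells, 1464 in JC-P cells and 1313 in JC-M3 cells. Pgam1, the phosphoglycerate mutase, stood at 492 TPM in JC-WT cells, 463 in JC-P cells and 507 in JC-M3 cells. Both were close to level. Eno1, the ubiquitous enolase, stood at 709.8 TPM in JC-WT cells, 543 in JC-P cells and 519 in JC-M3 cells. Pkm stood at 3523 TPM in JC-WT cells, 2836 in JC-P cells and 2769 in JC-M3 cells. Both were highest in JC-WT, with log2 ratios of JC-M3 over JC-WT of -0.45 (-0.48 to -0.42) for Eno1 and -0.35 (-0.36 to -0.33) for Pkm. Eno2, the neuronal enolase and a hypoxia target in other cells, stood at 20.3 TPM in JC-WT cells, 22.8 in JC-P cells and 10.1 in JC-M3 cells. It was at least 2-fold lower in JC-M3 than in JC-P, with a log2 ratio of -1.13 (-1.36 to -0.98). Its ratio to Eno1 was 0.0286 (0.0262 to 0.0312) in JC-WT cells, 0.0419 (0.0389 to 0.0452) in JC-P cells and 0.0195 (0.0175 to 0.0218) in JC-M3 cells, so Eno2 was lowest in JC-M3 also relative to Eno1. Eno3, the muscle enolase, is not among the 34 genes and was named after its values were seen. It stood at 1639.8 TPM in JC-WT cells, 1420.5 in JC-P cells and 1369 in JC-M3 cells, above the TPM of Eno1 at every stage. By reads Eno1 was the higher, with 20491 in JC-WT cells, 19190 in JC-P cells and 19152 in JC-M3 cells. Eno3 had 15305, 16233 and 16339 reads, in the same order. The merged exon length of Eno1 is 5379 bases against 1902 for its reference transcript, and that of Eno3 is 1739 against 1454. The gap between Eno3 and Eno1 in TPM hence depends on the length used, so their order is uncertain.

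Gapdh, the dehydrogenase that acts on glyceraldehyde 3-phosphate and a common reference gene, was listed at only 47.5 TPM in JC-WT cells, 37.1 in JC-P cells and 36.9 in JC-M3 cells. That is far below Tpi1 and Pgk1, the enzymes on either side of it. Of the 50-base windows of its reference transcript, 90.4% also occur in transcripts of other genes, and 223 genes share some sequence with Gapdh. Its merged exon length of 4133 bases also exceeds the 1272 bases of that transcript. Its level in this table is therefore uncertain. The same share of windows was 68.0% for Pgk1, 62.4% for Bnip3, 58.1% for Eno1, 41.5% for Pgam1 and 34.4% for Pkm. Eno1b, the gene that shares most with Eno1, stood at 947 TPM in JC-WT cells, 766 in JC-P cells and 714 in JC-M3 cells. How reads divide between Eno1 and Eno1b is uncertain, although both were highest in JC-WT and lowest in JC-M3.

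The lactate dehydrogenase transcripts were almost all Ldha, and Ldhb had most of its few reads in JC-M3. Ldha, the subunit favoured in cells that make lactate, stood at 1087 TPM in JC-WT cells, 924 in JC-P cells and 878 in JC-M3 cells, a log2 ratio of JC-M3 over JC-WT of -0.31 (-0.34 to -0.28). Ldhb, the heart-type subunit (chr6:142490249-142507957, minus strand), had 3 reads in JC-WT cells, 0 in JC-P cells and 56 in JC-M3 cells. In TPM that was 0.356 in JC-WT cells, 0 in JC-P cells and 5.20 in JC-M3 cells. Its reads were thus mostly in JC-M3, and Ldhb reached the mean of 1 TPM through that library, so a gene with these values had to differ. Since Ldhb was counted in the other 2 libraries, the 0 of JC-P is read here as a count. It was at least 17.9-fold higher in JC-M3 than a floor of 3 reads in JC-P, and the lower limit of the counting interval of its log2 ratio was 3.81. Against the 3 reads of JC-WT its TPM was 14.6-fold higher in JC-M3, with a log2 interval of 2.25 to 6.19. Even in JC-M3, Ldhb made up 0.589% of the TPM of the pair. Of the windows of its reference transcript, 27.0% occur in other genes.

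The 3 genes that regulate flux did not share an order. Pdk1, the kinase that shuts off pyruvate dehydrogenase and a classical HIF-1 target, stood at 10.4 TPM in JC-WT cells, 15.96 in JC-P cells and 8.11 in JC-M3 cells. For JC-P over JC-WT its log2 ratio was 0.59 (0.44 to 0.78), and it was -0.93 (-1.15 to -0.81) for JC-M3 over JC-P, the order of stages seen in Car9. Pfkfb3, which makes the phosphofructokinase activator fructose 2,6-bisphosphate, stood at 14.9 TPM in JC-WT cells, 19.1 in JC-P cells and 22.3 in JC-M3 cells and was highest in JC-M3, with a log2 ratio to JC-WT of 0.57 (0.44 to 0.73). Pfkfb4, its relative, stood at 12.2 TPM in JC-WT cells, 10.8 in JC-P cells and 15.1 in JC-M3 cells. Both bifunctional enzymes were above their JC-WT level in JC-M3, Pdk1 was below it, and none of the 3 reached 2-fold. With chromosome medians subtracted, the log2 ratio of Pdk1 for JC-M3 over JC-WT was -0.04, against -0.35 without it. Its place below JC-WT hence depends on this setting. The same ratio with the subtraction was 0.87 for Pfkfb3 and 0.32 for Pfkfb4.

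Among HIF-1 and its hydroxylases, Hif1a and Egln3 were highest in JC-P and Egln1 in JC-M3. Hif1a, whose protein is controlled mainly by degradation, stood at 107 TPM in JC-WT cells, 136 in JC-P cells and 114 in JC-M3 cells, a log2 ratio of JC-P over JC-WT of 0.35 (0.29 to 0.42). Egln1, the main oxygen-sensing prolyl hydroxylase PHD2, stood at 50.8 TPM in JC-WT cells, 52.2 in JC-P cells and 64.04 in JC-M3 cells. Egln3 (PHD3), which is itself a HIF-1 target, stood at 94.3 TPM in JC-WT cells, 122 in JC-P cells and 58.4 in JC-M3 cells, and was at least 2-fold lower in JC-M3 than in JC-P at log2 -1.06 (-1.17 to -0.96). The ratio of Egln3 to Egln1 was 1.86 (1.71 to 2.02) in JC-WT cells, 2.34 (2.18 to 2.51) in JC-P cells and 0.911 (0.843 to 0.986) in JC-M3 cells. Egln3 was thus the more abundant of the 2 hydroxylase transcripts in JC-WT and JC-P but not in JC-M3.

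The 7 hypoxia targets had a median log2 ratio of 0.56 for JC-P over JC-WT and of -0.61 for JC-M3 over JC-P, beside 0.01 and -0.01 over all features. All 7 were above 0 in the first comparison, where 7389 of 14527 features were, and all 7 below 0 in the second, where 7366 were, with the JC-P library shared by both. Summed over the 7, their level was 279.8 TPM in JC-WT cells, 432 in JC-P cells and 242.3 in JC-M3 cells. Only Adm was called for JC-P over JC-WT and only Car9 for JC-M3 over JC-P.

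Car9, the cell surface carbonic anhydrase that handles acid and a standard hypoxia marker in tumours, stood at 37.04 TPM in JC-WT cells, 68.1 in JC-P cells and 19.99 in JC-M3 cells. From 316 reads in JC-M3 and 1031 in JC-P, its log2 ratio was -1.74 (-1.95 to -1.58), the lowest of the 32 genes. JC-M3 also lay below JC-WT, at -0.87 (-1.10 to -0.68). Gm12454, which overlaps 9.29% of the exon bases of Car9 on the opposite strand, stood at 9.299 TPM in JC-WT cells, 14.5 in JC-P cells and 11.3 in JC-M3 cells. Bnip3, a receptor that marks mitochondria for autophagy, stood at 37.7 TPM in JC-WT cells, 71.8 in JC-P cells and 46.9 in JC-M3 cells. Its relative Bnip3l stood at 99.9 TPM in JC-WT cells, 148 in JC-P cells and 76.9 in JC-M3 cells. Both were highest in JC-P, where the log2 ratio to JC-WT was 0.92 (0.77 to 1.09) for Bnip3 and 0.56 (0.49 to 0.65) for Bnip3l. For JC-M3 over JC-P it was -0.61 (-0.75 to -0.48) for Bnip3 and -0.94 (-1.02 to -0.87) for Bnip3l. In JC-M3, Bnip3 was above its JC-WT level and Bnip3l below. With chromosome medians subtracted, the log2 ratio of Bnip3l for JC-M3 over JC-WT was -0.09, against -0.37 without it. The copy Bnip3l-ps, which shares sequence with Bnip3l, had the same order of stages at 32.8 TPM in JC-WT cells, 42.2 in JC-P cells and 17.4 in JC-M3 cells. Gm45507, which overlaps 22.3% of the exon bases of Bnip3 on the opposite strand, was under 1 TPM in every library. Of the windows of the Bnip3 reference transcript, 62.4% occur in other genes, so the level of Bnip3 is uncertain.

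Ddit4, an inhibitor of mTORC1 known as REDD1, stood at 73.7 TPM in JC-WT cells, 95.5 in JC-P cells and 58.9 in JC-M3 cells. Ndrg1, a stress-responsive gene, stood at 27.7 TPM in JC-WT cells, 34.7 in JC-P cells and 26.2 in JC-M3 cells. Both were highest in JC-P, with log2 ratios of JC-M3 over JC-P of -0.69 (-0.84 to -0.56) for Ddit4 and -0.40 (-0.51 to -0.29) for Ndrg1. Ankrd37, an ankyrin repeat gene induced by HIF-1, had 8 reads in JC-WT cells, 11 in JC-P cells and 10 in JC-M3 cells. Its intervals included 0 in all 3 comparisons, so no difference was detectable at this depth.

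Adm, which encodes the vasodilator peptide adrenomedullin, did not follow the order of Car9. It had 25 reads in JC-WT cells, 137 in JC-P cells and 138 in JC-M3 cells, a level of 2.88 TPM in JC-WT cells, 12.9 in JC-P cells and 12.4 in JC-M3 cells. Relative to JC-WT its log2 ratio was 1.99 (1.54 to 2.84) in JC-P and 1.94 (1.49 to 2.79) in JC-M3, and relative to JC-P it was -0.05 (-0.40 to 0.30) in JC-M3. JC-P and JC-M3 were level within counting error and JC-WT lay far below both, whereas Car9 and Ddit4 were lower in JC-M3 than in JC-WT.

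**Figure D4:**
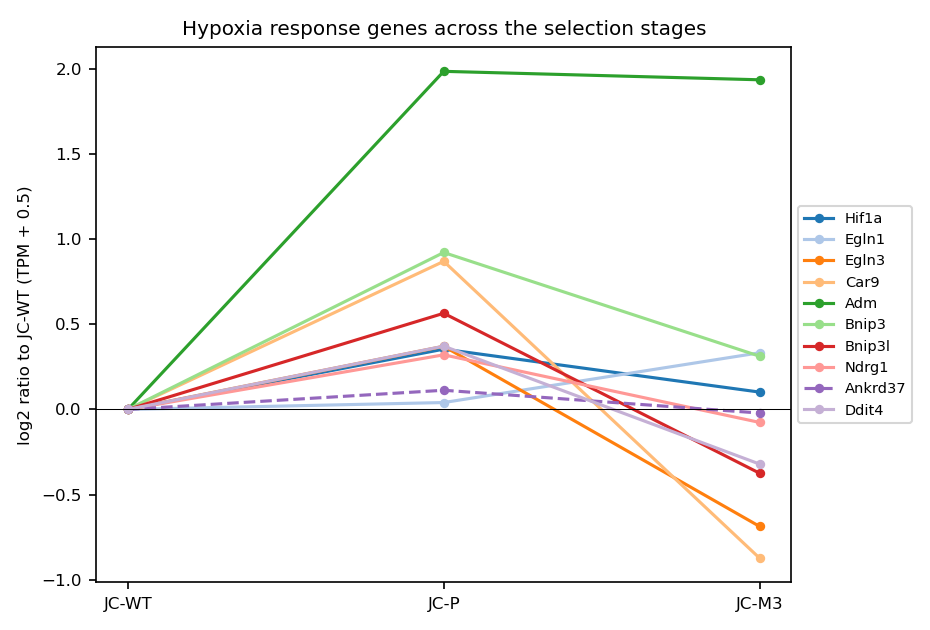
log2 ratio to JC-WT (TPM + 0.5) of the 10 genes of HIF-1, its hydroxylases and its targets at the 3 selection stages, 1 line per gene; Ankrd37 (dashed) rests on 8 to 11 reads per library. Adm is at 1.94 in JC-M3, Car9 is at -0.87 there, and Egln1 is the one gene whose highest point is JC-M3.

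The 12 endothelial markers, in sum, had the same order of libraries as the summed hypoxia targets, at 12.3 TPM in JC-WT cells, 39.4 in JC-P cells and 5.92 in JC-M3 cells. Only 3 of the 12 were compared, and Cdh5 and Plvap made up most of the sum in JC-P. For JC-P over JC-WT, 2 of the 3 were called higher and 1 lay below 0, at log2 -0.26. Cdh5, the endothelial cadherin, stood at 0.0887 TPM in JC-WT cells, 17.7 in JC-P cells and 0.104 in JC-M3 cells. Plvap, a protein of endothelial fenestrae, stood at 7.595 TPM in JC-WT cells, 17.8 in JC-P cells and 2.71 in JC-M3 cells. Kdr and Cldn5 were listed at 0 in every library, and Pecam1 stood at 0.1496 TPM in JC-WT cells, 0.244 in JC-P cells and 0.234 in JC-M3 cells. The part of these markers in the hypoxia values was not tested.

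Hypoxia targets beyond these 7 did not show a common shift. Of 49 further targets found in the table, 43 were compared, and the median log2 ratio of JC-P to JC-WT was 0.08. There 2 were called higher (4.65%, all features 4.76%) and 2 lower (4.65%, all features 2.33%). The median was -0.08 for JC-M3 over JC-P, with 4 higher (9.30%, all features 3.82%) and 2 lower (4.65%, all features 5.38%). For JC-M3 over JC-WT it was 0.06, with 5 higher (11.6%, all features 6.14%) and 3 lower (6.98%, all features 5.27%). Plod2, a collagen lysyl hydroxylase, stood at 14.6 TPM in JC-WT cells, 26.1 in JC-P cells and 69.5 in JC-M3 cells, a log2 ratio of JC-M3 over JC-WT of 2.21 (2.10 to 2.40). Ak4, a mitochondrial adenylate kinase, stood at 10.2 TPM in JC-WT cells, 16.9 in JC-P cells and 23.1 in JC-M3 cells. Both were highest in JC-M3. Cxcl12, a chemokine gene, stood at 43.1 TPM in JC-WT cells, 109 in JC-P cells and 88.1 in JC-M3 cells and was at least 2-fold higher than in JC-WT in both derived stages. Stc2, encoding a secreted stanniocalcin, stood at 46.05 TPM in JC-WT cells, 16.996 in JC-P cells and 11.2 in JC-M3 cells. Hmox1, the inducible heme oxygenase, stood at 264 TPM in JC-WT cells, 136 in JC-P cells and 105 in JC-M3 cells. Both were highest in JC-WT and at least 2-fold lower in JC-M3 than there. Vldlr, a lipoprotein receptor gene, stood at 7.53 TPM in JC-WT cells, 3.26 in JC-P cells and 4.66 in JC-M3 cells. Kdm4b, a histone demethylase, stood at 25.7 TPM in JC-WT cells, 35.03 in JC-P cells and 16.5 in JC-M3 cells. Nos2, the inducible nitric oxide synthase, stood at 1.55 TPM in JC-WT cells, 5.42 in JC-P cells and 0.296 in JC-M3 cells. Kdm4b and Nos2 thus had the same order of stages as Car9. Edn1 at 1.39 TPM in JC-WT cells, 0.498 in JC-P cells and 1.57 in JC-M3 cells, and Pdgfb at 1.43 TPM in JC-WT cells, 1.32 in JC-P cells and 3.68 in JC-M3 cells, were named after their values were seen, since the counts hold them. The 10 fibroblast markers summed to 222.5 TPM in JC-WT cells, 418 in JC-P cells and 1093 in JC-M3 cells, but did not move together. Of the 7 compared, 2 were called higher and 3 lower for JC-M3 over JC-P, with log2 ratios from -2.33 to 2.08. For JC-M3 over JC-WT, 4 were called higher and 1 lower. The part of these markers in the values above was not tested.

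In the machinery around HIF, 14 of 16 genes were compared, with median log2 ratios to JC-WT of -0.07 in JC-P and -0.01 in JC-M3, and of JC-M3 to JC-P of 0.00. Cited2, a regulator that competes with HIF-1 alpha for coactivators, stood at 37.8 TPM in JC-WT cells, 28.7 in JC-P cells and 64.2 in JC-M3 cells. It was at least 2-fold higher in JC-M3 than in JC-P, at log2 1.15 (1.00 to 1.32), the opposite order of stages to that of Car9. Arnt2, a relative of the HIF partner ARNT, stood at 3.15 TPM in JC-WT cells, 2.28 in JC-P cells and 0.663 in JC-M3 cells and was at least 2-fold lower in JC-M3 than in either other stage. Egln2, the prolyl hydroxylase PHD1, stood at 104 TPM in JC-WT cells, 75.2 in JC-P cells and 67.3 in JC-M3 cells. Siah1a, a ubiquitin ligase gene, stood at 38.2 TPM in JC-WT cells, 50.7 in JC-P cells and 31.2 in JC-M3 cells.

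Of 34 other isozymes and transporters, 18 were compared, with median log2 ratios to JC-WT of 0.02 in JC-P and 0.05 in JC-M3, and of JC-M3 to JC-P of 0.18. Slc2a6, a member of the glucose transporter family, stood at 5.57 TPM in JC-WT cells, 11.8 in JC-P cells and 15.7 in JC-M3 cells. Relative to JC-WT its log2 ratio was 1.01 (0.73 to 1.43) in JC-P and 1.42 (1.17 to 1.84) in JC-M3. Slc2a5, the fructose transporter GLUT5, had 5 reads in JC-WT cells, 11 in JC-P cells and 94 in JC-M3 cells, a level of 0.274 TPM in JC-WT cells, 0.492 in JC-P cells and 4.03 in JC-M3 cells. Like Ldhb, it reached the mean of 1 TPM through JC-M3. Ldhd, the mitochondrial D-lactate dehydrogenase, stood at 20.4 TPM in JC-WT cells, 22.8 in JC-P cells and 12.4 in JC-M3 cells. Gpd1, the cytosolic glycerol 3-phosphate dehydrogenase, stood at 16.8 TPM in JC-WT cells, 10.4 in JC-P cells and 8.47 in JC-M3 cells. Both were lowest in JC-M3. Slc2a13, a myo-inositol transporter gene, stood at 1.58 TPM in JC-WT cells, 0.782 in JC-P cells and 0.906 in JC-M3 cells.

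In the pentose phosphate pathway, a branch off glycolysis, 0 of 8 genes were called in any comparison. Over all features 2.33% to 6.14% were called in each direction, so a list this short cannot be told apart from that share. Tkt, the transketolase, stood at 174 TPM in JC-WT cells, 167 in JC-P cells and 93.6 in JC-M3 cells, a log2 ratio of JC-M3 over JC-P of -0.83 (-0.89 to -0.78), the lowest of the 8. H6pd, which supplies NADPH in the endoplasmic reticulum, stood at 17.7 TPM in JC-WT cells, 25.02 in JC-P cells and 25.9 in JC-M3 cells. Pgd, the 6-phosphogluconate dehydrogenase, stood at 119 TPM in JC-WT cells, 118 in JC-P cells and 139 in JC-M3 cells. Rpia, the ribose phosphate isomerase, stood at 20.96 TPM in JC-WT cells, 16.5 in JC-P cells and 18.7 in JC-M3 cells. The last 3 all varied by less than 1.5-fold. Of 10 compared genes of gluconeogenesis and glycogen, 0 were called, again too few genes to be told apart from the share over all features. Pcx, the pyruvate carboxylase, stood at 105 TPM in JC-WT cells, 59.5 in JC-P cells and 70.2 in JC-M3 cells, highest in JC-WT. Pygb, the brain glycogen phosphorylase, stood at 115 TPM in JC-WT cells, 85.2 in JC-P cells and 65.98 in JC-M3 cells, and its muscle relative Pygm at 0.521 TPM in JC-WT cells, 1.28 in JC-P cells and 1.27 in JC-M3 cells. Pgm1, of the phosphoglucomutase family, stood at 129 TPM in JC-WT cells, 146 in JC-P cells and 89.4 in JC-M3 cells.

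On the way of pyruvate into mitochondria, 1 of 11 compared genes (9.09%) was called higher, for JC-M3 over JC-WT, against 6.14% of all features. It was Mpc1, a subunit of the mitochondrial pyruvate carrier, at 14.6 TPM in JC-WT cells, 18.3 in JC-P cells and 36.6 in JC-M3 cells, a log2 ratio of 1.30 (1.07 to 1.59). Of the windows of its reference transcript, 41.8% occur in other genes, and 23.1% of its exon bases overlap 4930506C21Rik on the opposite strand, so its level is uncertain. Pdhx, a component of pyruvate dehydrogenase, stood at 31.4 TPM in JC-WT cells, 20.99 in JC-P cells and 19.99 in JC-M3 cells. Pdp1, the phosphatase that reverses the action of Pdk1, stood at 14.2 TPM in JC-WT cells, 15.7 in JC-P cells and 9.06 in JC-M3 cells, lowest in JC-M3 like Pdk1.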

How the data were processed

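The deposited table held TPM, which the authors computed per gene from reads and gene length, per the file header and the sum of each column. FastQC 0.11.9, STAR 2.7.9a, featureCounts and the builds mm10 and GRCm38 stand in the submitters' processing notes. Annotation release, strand setting and handling of multi-mapped reads were not given in the sources used here. Gene coordinates come from GENCODE M21 (GRCm38).

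Comparisons took log2 ratios of TPM + 0.5 over the 14527 features whose mean reached 1 TPM, with a call at 2-fold. A single library per group allowed no test. Deposited TPM times merged exon length (GENCODE M21, matched for 55144 features) fell on multiples of one step per library. Division by that step gave whole reads, within 0.01, for 98.4% of expressed genes in JC-WT and 98.5% in both JC-P and JC-M3. Those reads gave exact conditional (Clopper-Pearson) 95% intervals of plain TPM ratios and a floor of 3 reads per library. Intervals and floors cover counting error only, since reads without molecular identifiers are not independent molecules. A ratio of TPM + 0.5 understates differences of low genes and can lie outside its interval. Shared sequence is the share of 50-base windows of a reference transcript (number 201 in GENCODE) found in transcripts of other genes.

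The genes and lists were chosen with earlier results of these data known. From the wider lists, genes were named where the mean reached 5 TPM and any comparison 2-fold, plus the highest and lowest ratio per comparison. Some genes that this rule names are not reported here. Alternatives changed the pseudocount, filter, scaling, threshold or features kept, or subtracted chromosome medians. The procedure was tested on simulated data. The software was matplotlib 3.10.9, scipy 1.17.1, pandas 2.3.3 and numpy 2.4.6 under Python 3.11.15.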

Additional observations from a re-analysis of the deposited data

How the results depend on the processing

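The counts of called genes are small and depend on the settings. For JC-P over JC-WT, the 2 genes called higher became 1 with pseudocount 2, 0 when the mean had to reach 10 TPM and 6 with a threshold of 1.5-fold (all features: 12.0%), and the 0 called lower became 1 with pseudocount 0.1 (Ldhb) and 1 with a threshold of 1.5-fold (all features: 6.90%). For JC-M3 over JC-P, the 1 called higher (Ldhb) became 0 when the mean had to reach 10 TPM, and the 3 called lower became 8 with a threshold of 1.5-fold (all features: 13.3%). For JC-M3 over JC-WT, the 3 called higher became 0 when the mean had to reach 10 TPM, and the 0 called lower became 4 with a threshold of 1.5-fold (all features: 12.5%). The median log2 ratio of JC-M3 over JC-WT, -0.08 over 32 genes, was -0.31 over the 28 genes left by that filter, which drops genes of low level by construction. Over all features, that filter left 156 higher and 63 lower calls for JC-P over JC-WT, against 692 and 339. Car9, Egln3 and Eno2 stayed called lower in JC-M3 than in JC-P under every pseudocount, filter and scaling tried. With a mean of at least 10 TPM they were 3 of 28 genes, against 2.84% of all features. With chromosome medians subtracted, 43 of 96 single values moved beyond their counting interval, no called value changed sign, 2 smaller values larger than counting error did (Pfkl for JC-M3 over JC-P, at -0.14, and Pgk1 for JC-P over JC-WT, at -0.16), and Bnip3 passed 2-fold for JC-P over JC-WT, at 1.00. No paired analysis was possible because each group holds 1 library. Depth limits Ankrd37, Slc16a3 and Ldhb, which rest on 0 to 56 reads per library.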
